A study of Mus musculus with 6 samples.

Results

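The genes of extracellular Wnt signaling were examined in the mRNA of native cardiac fibroblasts (CFs): the Wnt ligands, the Frizzled (Fzd) and Lrp receptors, the secreted antagonists of the Sfrp and Dkk families with Wif1, the R-spondins Rspo1 and Rspo3, and the nuclear and feedback genes Axin2, Lef1 and Tcf7l2. They were taken from the count table by a rule on gene symbols, written with earlier results of these data known. Of the 49548 genes of the table, 45 were members, and 33 of them reached a minimum of 10 counts in 2 or more libraries and were tested. The CFs came from hearts of C57BL/6J mice aged 5 weeks, in 3 wild-type (WT) and 3 CharmeKO libraries, and CharmeKO against WT is the comparison made. CharmeKO mice carry a polyadenylation signal inserted in the locus of the long non-coding RNA Charme, an allele that is not restricted to 1 cell type. The cells of both groups were what remained of dissociated hearts after red cell lysis and magnetic depletion of hematopoietic cells, so that they hold other stromal cells beside fibroblasts. The methods name 3 mice and 3 samples of native CFs without tying each library to 1 mouse, and p-values measure the spread between these libraries only.

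Wnt ligands are secreted, lipid-modified glycoproteins that bind Frizzled receptors, and together with the co-receptors Lrp5 or Lrp6 they keep beta-catenin from being degraded, so that it can act with TCF and LEF factors in the nucleus. Other ligands, such as Wnt5a and Wnt11, are mostly known for signaling through Frizzled without beta-catenin. Secreted Frizzled-related proteins (Sfrp) and Wif1 bind Wnt ligands outside the cell, Dickkopf proteins (Dkk) block Lrp co-receptors in several cases, and R-spondins raise the amount of receptor at the surface. In the heart the pathway is known for its part in development, in valve and epicardial cells, and in the fibroblast response to injury.

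Charme, the targeted gene, was counted 26, 15 and 4 times in WT and 7, 0 and 0 times in CharmeKO, and scaled to depth each CharmeKO library was below each WT library. Total counts ranged from 9595701 to 42101393 per library, and WT replicate 3 was the shallowest. Levels are given as normalized CPM, the read count scaled to library depth. For a gene at 0, up to 3 counts remain possible, equal to 0.0705 to 0.323 normalized CPM depending on the library, and this limit covers counting error only. Xist, transcribed from the inactive X chromosome, divided the libraries 3 against 3, with WT replicate 1 and CharmeKO replicates 1 and 2 on its side and Y-linked transcripts in the other 3, and CharmeKO replicate 1 held Y-linked transcripts at 4.75 normalized CPM beside 473 for Xist. All 10 fibroblast markers were detected, and their summed level was 33110 to 39242 normalized CPM in WT and 31011 to 36088 in CharmeKO. Most of this sum was Gsn, at 18690, 26456 and 17340 in WT and 21182, 20095 and 22393 in CharmeKO. The 10 endothelial markers summed to 8847 to 10714 normalized CPM in WT and 9799 to 13077 in CharmeKO, and the 5 erythroid markers to 26774 to 39207 and 24411 to 31742, so that the samples were not fibroblasts alone.

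In these cells the extracellular Wnt genes ran from abundant receptors to ligands with no count. Of the members tested, 0 passed the threshold between CharmeKO and WT. Fzd4, Lrp5 and the antagonist Sfrp1 were the 3 members with the highest level per length. The difference with the lowest p was in Sfrp2, a secreted antagonist, at 25.1 ± 1.74 normalized CPM in WT and 34.5 ± 3.44 in CharmeKO (SD, n = 3 each), and Fzd5 followed, at 55.1 ± 7.77 and 41.6 ± 4.12. Both differences had 95% intervals of the log2 fold change that did not include 0, and both missed the threshold after adjustment over all genes tested. In bulk RNA such as this, fewer cells of a type and less RNA per cell cannot be told apart.

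Of the members described most fully below, 5 are shown with the sequence before their gene starts, which was searched for words of the TCF/LEF type. Whether TCF or LEF factors act there was not tested. Wnt11 was taken as the leading ligand, and the other 4 had an unadjusted edgeR p under 0.05 and no overlap between the groups. Sfrp4 met the same condition and had no entry among the sequences used here. Each run is the 250 bases before the start of the gene in RefSeq on build GRCm38.p6, written along the strand of the gene. Wnt11 lies on the plus strand with its window at chr7:98834862-98835111, Wnt10b on the minus strand at chr15:98778151-98778400, Wnt4 on the plus strand at chr4:137277385-137277634, Fzd5 on the minus strand at chr1:64737751-64738000 and Sfrp2 on the plus strand at chr3:83766071-83766320. Capitals mark a TCF/LEF-type word, which was searched as CTTTGAA or CTTTGAT or CTTTGTA or CTTTGTT on both strands.
Wnt11: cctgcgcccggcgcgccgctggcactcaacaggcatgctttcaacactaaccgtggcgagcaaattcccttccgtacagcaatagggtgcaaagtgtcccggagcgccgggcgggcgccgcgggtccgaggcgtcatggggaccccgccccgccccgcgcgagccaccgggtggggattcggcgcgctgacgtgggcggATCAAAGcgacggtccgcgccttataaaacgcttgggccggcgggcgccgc
Wnt10b: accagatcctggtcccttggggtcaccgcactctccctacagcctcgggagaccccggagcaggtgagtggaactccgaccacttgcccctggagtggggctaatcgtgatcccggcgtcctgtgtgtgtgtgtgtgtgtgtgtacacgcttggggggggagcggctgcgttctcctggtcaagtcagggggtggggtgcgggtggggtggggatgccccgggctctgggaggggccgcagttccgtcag
Wnt4: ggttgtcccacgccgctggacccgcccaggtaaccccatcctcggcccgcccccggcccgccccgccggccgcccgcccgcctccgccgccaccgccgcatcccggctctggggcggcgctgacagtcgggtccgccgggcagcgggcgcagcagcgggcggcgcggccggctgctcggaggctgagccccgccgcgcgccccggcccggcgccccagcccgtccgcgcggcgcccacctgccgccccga
Fzd5: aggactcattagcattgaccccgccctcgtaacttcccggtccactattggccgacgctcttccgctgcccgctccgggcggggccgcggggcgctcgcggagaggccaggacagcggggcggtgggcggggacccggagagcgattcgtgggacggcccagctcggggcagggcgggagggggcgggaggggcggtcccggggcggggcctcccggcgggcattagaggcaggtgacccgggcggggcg
Sfrp2: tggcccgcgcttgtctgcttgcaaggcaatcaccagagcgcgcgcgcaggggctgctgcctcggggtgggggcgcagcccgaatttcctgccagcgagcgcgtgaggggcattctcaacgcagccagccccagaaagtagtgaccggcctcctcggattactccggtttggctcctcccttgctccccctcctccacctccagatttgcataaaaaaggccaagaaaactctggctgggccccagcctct

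Of the 5 windows shown, only that of Wnt11 held such a word, on the reverse strand, with its first base 51 bases before the start. Wnt11 had 2 starts, and the first is shown because its window held the word. The window at its other start held 0, so that the choice of window favored a match for Wnt11. RefSeq windows of 300 bases, with 250 before and 50 after the start, were given for 30 of the 45 members, in 37 windows. A word was found in 7 of the 37, or 18.9%, against 16.9% of all 32851 windows. Beside Wnt11, the windows with a word belonged to Fzd7, Wnt5b, Tcf7l2, Lef1, Dkk1 and Wnt3, and Dkk1 held a pair of them. Wnt10b and Wnt1 are neighbours on chromosome 15 and are transcribed in opposite directions. A match is a description of the letters only, and its absence says nothing about binding.

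The levels of different members were compared per length, as normalized CPM per kilobase (kb) of exon, with lengths from an annotation of another build than the methods give for the counts. Among the receptors, Fzd4 stood highest, at 52.4 ± 9.02 normalized CPM per kb over the 6 libraries (SD, n = 6), and the co-receptor Lrp5 was next, at 32.8 ± 5.16. A group of Frizzled receptors followed, from Fzd1 at 11.9 ± 0.804 to Fzd5 at 6.99 ± 1.34, and between them Fzd7, Fzd2, Lrp6, Fzd6 and Fzd8 came in that order from 9.55 ± 1.06 to 7.76 ± 1.03. From Fzd7 down to Fzd5, neighbours in this order differed by less than the larger of their SDs. Fzd9 and Fzd3 lay far below, at 0.633 ± 0.264 and 0.151 ± 0.0385. Fzd4, known as the receptor of Norrin and of several Wnts in vascular cells, thus made up 48.9 ± 4.84% of the summed Frizzled level per kb in WT and 49.5 ± 5.82% in CharmeKO (SD, n = 3 each).

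Among the ligands, Wnt11 led with 13.3 ± 3.99 normalized CPM per kb, followed by Wnt9a at 3.91 ± 0.890, Wnt5b at 3.03 ± 0.387, Wnt5a at 1.49 ± 0.360 and Wnt10b at 1.34 ± 0.450. Wnt11 held 53.8 ± 5.39% of the summed Wnt level per kb in WT and 47.9 ± 4.08% in CharmeKO, and Wnt9a held 15.3 ± 2.04% and 15.2 ± 1.45%. Both shares overlapped between the groups. Between 11 and 14 of the 19 Wnt genes had a count in any one library.

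The antagonists were dominated by Sfrp1, at 27.0 ± 2.41 normalized CPM per kb, with Dkk3 at 14.2 ± 2.87 and Sfrp2 at 13.8 ± 2.66. Wif1, at 1.22 ± 0.456, and Sfrp4, Dkk2 and Sfrp5, at 0.362 or below, were far less abundant. Of the nuclear and feedback genes, Tcf7l2 was at 2.56 ± 0.344, Axin2 at 0.679 ± 0.0900 and Lef1 at 0.0654 ± 0.0228 normalized CPM per kb, and the R-spondin Rspo1 at 0.760 ± 0.231. With the length of the longest transcript in place of all exons, Tcf7l2 was at 6.04, Axin2 at 0.878 and Lef1 at 0.157. The order of some members also changed with that length. Lrp6, at 12.4, then stood above Fzd1 at 11.9, Sfrp2, at 14.9, above Dkk3 at 14.2, and Wnt10b, at 1.68, above Wnt5a at 1.67.

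**Figure D1:**
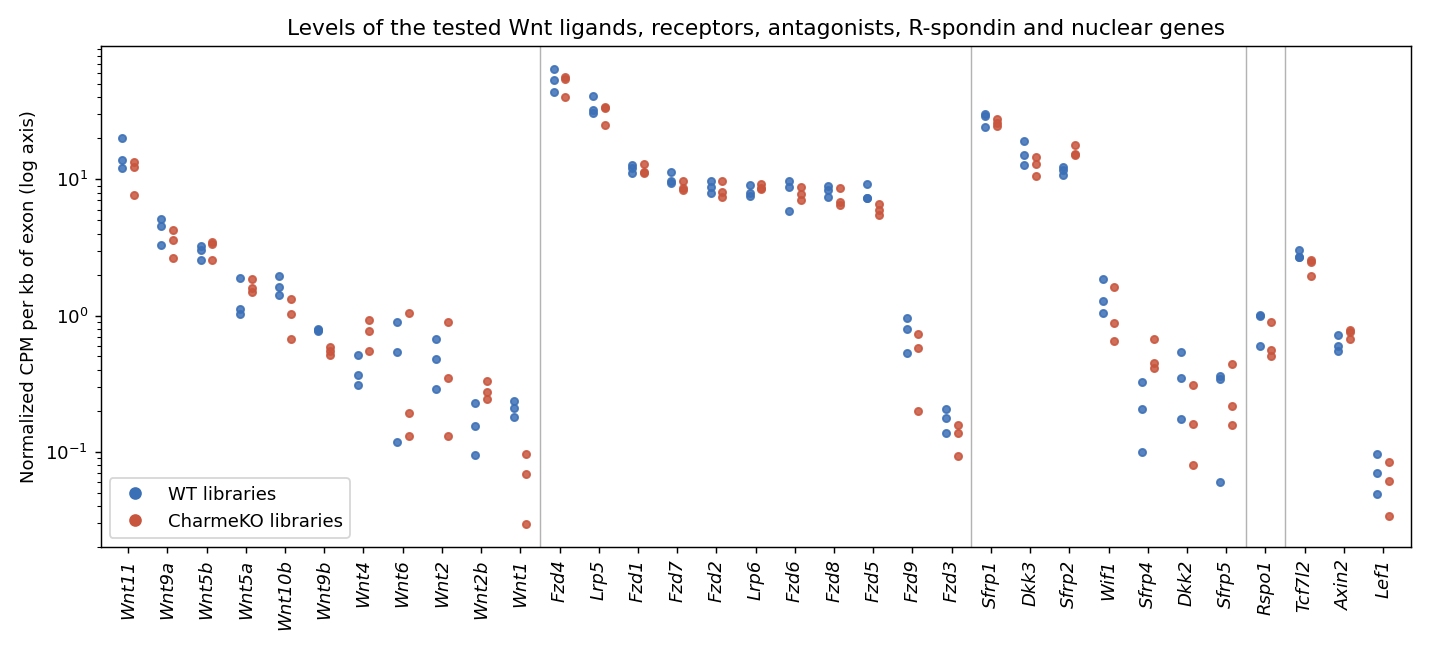
Level of each of the 33 tested members in every library, as normalized CPM per kb of exon on a log axis, with WT libraries in blue and CharmeKO libraries in red. Vertical lines separate ligands, receptors, antagonists, the R-spondin and the nuclear and feedback genes, and Fzd4 (52.4), Lrp5 (32.8) and Sfrp1 (27.0) have the highest means over the 6 libraries.

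Whether the loss of Charme was accompanied by other levels of these genes was asked by edgeR's quasi-likelihood test over all 15789 genes tested, with Benjamini-Hochberg adjustment and a threshold of 0.05. Of the 33 members tested, 0 passed, against 0.83% of all genes tested. By DESeq2 0 members passed as well, against 2.5% of all genes. At an unadjusted edgeR p under 0.05 there were 5 members, or 15.2%, against 12.8% of all genes, 3 of them higher in CharmeKO (Sfrp2, Wnt4 and Sfrp4) and 2 lower (Fzd5 and Wnt10b), while DESeq2 placed 6 there. The log2 fold change was below 0 in 24 members and above 0 in 9, a share of 72.7% below 0 against 48.8% of all genes. The median was −0.17, against 0.0096 over all genes, and the range ran from −1.67 (Wnt1) to 1.25 (Sfrp4).

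In 9 members the 3 CharmeKO libraries did not overlap the 3 WT libraries, a share of 27.3% against 18.2% of all genes tested. CharmeKO lay above WT in 4 of them, or 12.1% against 9.57% of all genes, and below WT in 5, or 15.2% against 8.59%. The first 4 were Sfrp2, Sfrp4, Wnt4 and Wnt2b, and the other 5 were Wnt10b, Wnt9b, Wnt1, Fzd5 and Tcf7l2. Sfrp4, Wnt2b and Wnt1 were below 3 normalized CPM in every library.

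**Figure D2:**
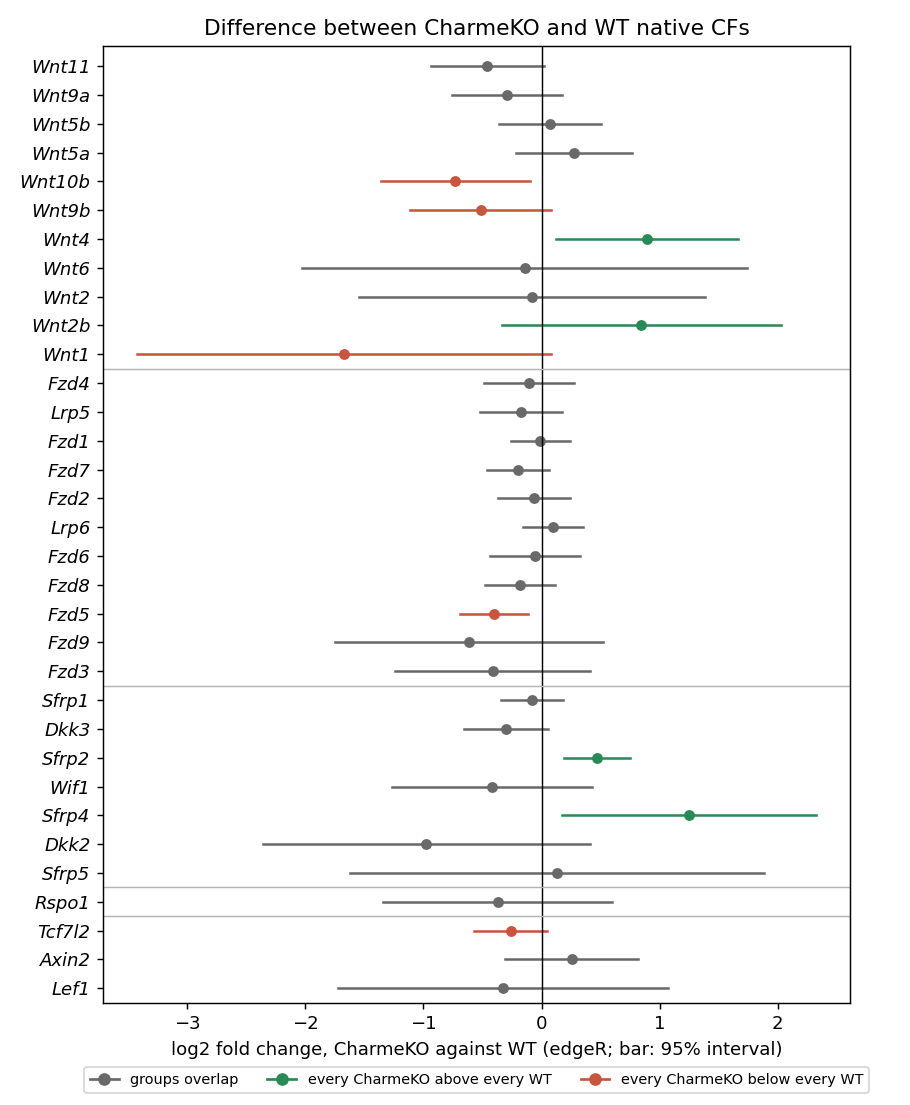
Log2 fold change of CharmeKO against WT for the 33 tested members by edgeR, with bars for the 95% interval, in the order of the plot of levels. Green marks members with every CharmeKO library above every WT library (4), red those with every one below (5) and grey those whose groups overlap, and the intervals of Sfrp2, Sfrp4, Wnt4, Wnt10b and Fzd5 do not reach 0.

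Among the ligands, 11 of 19 were tested, 4 with a log2 fold change above 0 and 7 below, with a median of −0.14. Wnt11, best known for signaling without beta-catenin, had 50.5, 83.1 and 57.2 normalized CPM in WT and 51.4, 32.0 and 55.4 in CharmeKO. WT replicate 2 was the highest of all and CharmeKO replicate 2 the lowest, and the other 4 libraries lay close together. Its log2 fold change was −0.46 (SE 0.22, 95% interval −0.94 to 0.017), with an adjusted p of 0.410 by edgeR and 0.334 by DESeq2. The size rested on these 2 libraries, as it was −0.21 without WT replicate 2 and −0.25 without CharmeKO replicate 2. Without the filter on low genes, edgeR gave an adjusted p of 0.0327 for Wnt11, the one member to pass under any alternative tried.

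Wnt10b, a ligand of the beta-catenin branch, had 6.68, 4.83 and 5.49 normalized CPM in WT and 4.47, 2.29 and 3.49 in CharmeKO. Its groups did not overlap, and the log2 fold change was −0.73 (SE 0.29, 95% interval −1.36 to −0.098, adjusted p = 0.317 by edgeR and 0.254 by DESeq2). Wnt1, its neighbour on the chromosome and the founding member of the family, was near the limit of detection, with 24, 13 and 4 counts in WT and 2, 4 and 7 in CharmeKO. Scaled to depth these were 0.564, 0.495 and 0.430 against 0.0699, 0.164 and 0.230 normalized CPM, without overlap, and the log2 fold change was −1.67 (SE 0.80, 95% interval −3.42 to 0.079, adjusted p = 0.414 by edgeR). The lowest CharmeKO value was below the level of 3 counts in its library.

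Wnt9b, a ligand of the beta-catenin branch known from endocardial cells and kidney, was close to constant within each group, at 3.50, 3.61 and 3.55 normalized CPM in WT and 2.65, 2.50 and 2.30 in CharmeKO. The groups did not overlap, and the log2 fold change of −0.52 (SE 0.27, 95% interval −1.11 to 0.081) had an adjusted p of 0.463 by edgeR. Its relative Wnt9a was at 11.1, 17.0 and 15.2 in WT and 14.2, 8.88 and 11.9 in CharmeKO, with overlap, and a log2 fold change of −0.29 (SE 0.21, edgeR's adjusted p = 0.611).

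The ligands with a log2 fold change above 0 were Wnt4, Wnt2b, Wnt5a and Wnt5b. Wnt4, which acts in the kidney, in the gonad and in endocardial cells, had 1.53, 2.17 and 1.29 normalized CPM in WT and 3.25, 3.89 and 2.30 in CharmeKO. Every CharmeKO library was above every WT library, and the log2 fold change was 0.89 (SE 0.35, 95% interval 0.12 to 1.66, adjusted p = 0.317 by edgeR and 0.288 by DESeq2). Wnt2b, known from epithelial and mesothelial tissue, had 0.400, 0.951 and 0.645 against 1.15, 1.02 and 1.38, with a gap between the groups smaller than the range of either and a log2 fold change of 0.84 (SE 0.54, edgeR's adjusted p = 0.555). Wnt5b, at 8.58, 8.10 and 6.78 in WT and 8.87, 6.83 and 9.15 in CharmeKO, overlapped, with a log2 fold change of 0.07 (SE 0.20, 95% interval −0.36 to 0.50, edgeR's adjusted p = 0.912).

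Of the other tested ligands, Wnt5a was at 14.7, 8.67 and 8.07 normalized CPM in WT and 11.7, 14.5 and 12.5 in CharmeKO, where WT replicate 1 was the highest of the 6 libraries. Wnt2 and Wnt6 varied 6.84-fold and 8.90-fold between their highest and lowest libraries, with overlapping groups, and edgeR's adjusted p was 0.974 and 0.965. The 8 ligands below the filter were Wnt3, Wnt3a, Wnt8a and Wnt8b, at 0 counts in every library, and Wnt7a, Wnt7b, Wnt10a and Wnt16. Wnt7a and Wnt7b had 15 and 3 counts in CharmeKO replicate 3 and 0 in the other 5 libraries. Wnt10a had 3 counts in WT replicate 3 alone, and Wnt16 had 11, 0 and 1 in WT and 0, 0 and 8 in CharmeKO.

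**Figure D3:**
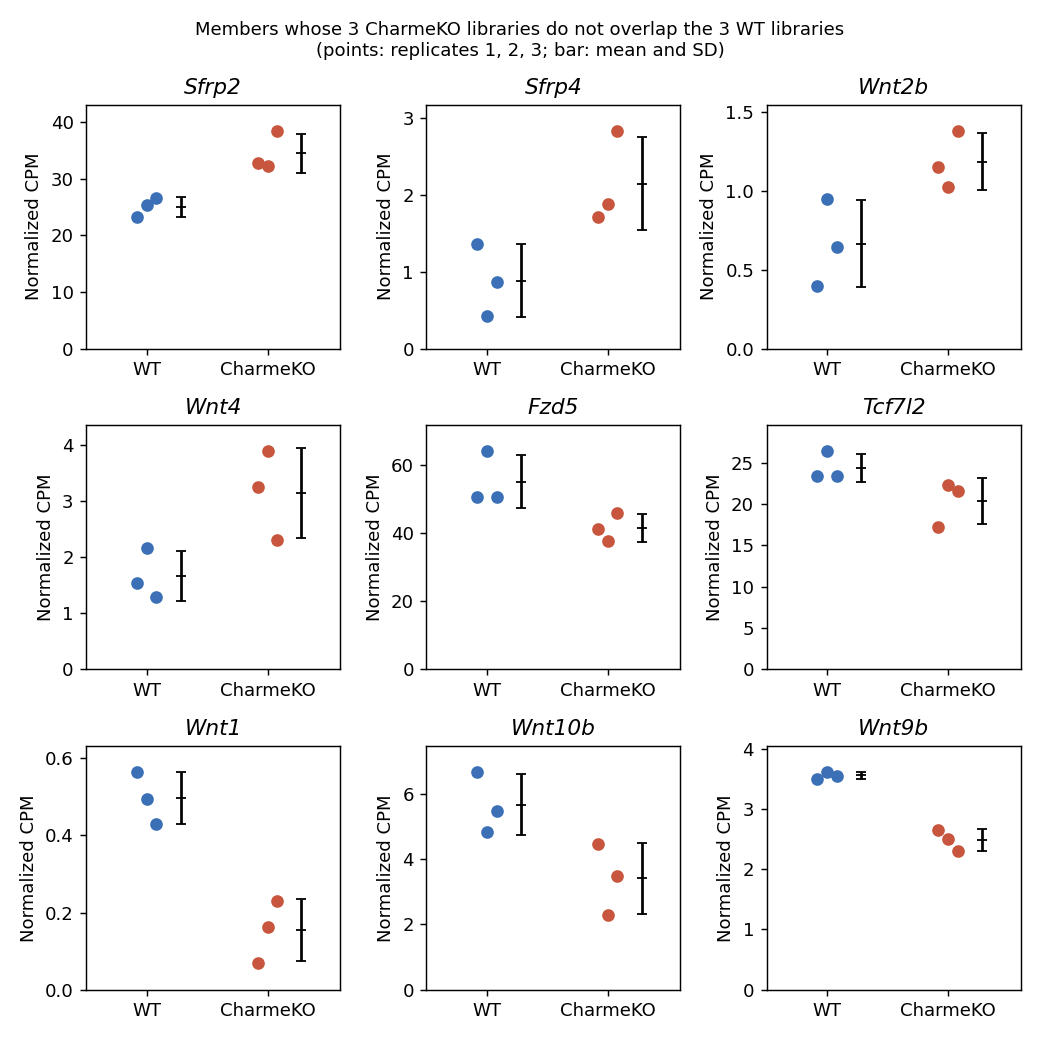
Normalized CPM in each library, on axes that start at 0, for the 9 members whose WT (blue) and CharmeKO (red) libraries do not overlap, with the mean and SD of each group as a black bar (n = 3). Sfrp2 shows a gap between 26.7 and 32.3, whereas Wnt1 lies below 1 normalized CPM throughout.

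Among the receptors, 11 of 12 were tested, and 10 of the 11 had a log2 fold change below 0, with a median of −0.17. Fzd5, a receptor for Wnt5a and for ligands of the beta-catenin branch, had 50.6, 64.1 and 50.7 normalized CPM in WT and 41.3, 37.7 and 45.9 in CharmeKO. It was the one receptor whose groups did not overlap. Its log2 fold change was −0.41 (SE 0.13, 95% interval −0.69 to −0.12), with an adjusted p of 0.238 by edgeR and 0.150 by DESeq2.

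The more abundant receptors overlapped between the groups. Fzd4 had 296, 437 and 362 normalized CPM in WT and 269, 382 and 366 in CharmeKO, with replicate 1 the lowest in both groups, and a log2 fold change of −0.11 (SE 0.17, 95% interval −0.49 to 0.28, edgeR's adjusted p = 0.851), which crossed 0 when WT replicate 2 was left out (0.043), when CharmeKO replicate 1 was left out (0.040) or with a term for Xist and Y-linked transcripts (0.0054). Lrp5, the co-receptor, had 299.97, 400.2 and 317 against 245, 334 and 323, the same order of libraries within each group as Fzd4, and a log2 fold change of −0.17 (SE 0.16, edgeR's adjusted p = 0.709). Fzd1 was the most even receptor, at 53.2, 50.5 and 46.4 in WT and 54.5, 47.7 and 47.1 in CharmeKO, with a log2 fold change of −0.01 (SE 0.11, 95% interval −0.26 to 0.24, edgeR's adjusted p = 0.980), a sign that changed with upper-quartile normalization and when any 1 of 3 libraries (WT replicate 1, CharmeKO replicate 2 or CharmeKO replicate 3) was left out.

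Lrp6, the other co-receptor, was the one receptor with a log2 fold change above 0, at 0.10 (SE 0.12), from 109, 103.3 and 125 normalized CPM in WT and 117, 126 and 117 in CharmeKO. Per kb, Lrp5 was 4.28 ± 1.01 times as abundant as Lrp6 in WT and 3.51 ± 0.491 times in CharmeKO (SD, n = 3 each), with overlap. Fzd2, Fzd3, Fzd6, Fzd7, Fzd8 and Fzd9 overlapped between the groups, with log2 fold changes from −0.61 (Fzd9) to −0.053 (Fzd6). Fzd10 was below the filter, with 6 counts in WT replicate 3, 1 in CharmeKO replicate 3 and 0 elsewhere.

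Among the secreted antagonists, 7 of 9 were tested, 3 with a log2 fold change above 0 and 4 below. Sfrp2, which binds Wnt ligands and is also known to act on collagen processing, had 23.2, 25.3 and 26.7 normalized CPM in WT and 32.8, 32.3 and 38.5 in CharmeKO. Every CharmeKO library was above every WT library, by a gap wider than the range of WT. The log2 fold change was 0.47 (SE 0.13, 95% interval 0.19 to 0.74), or 1.38-fold, with an adjusted p of 0.159 by edgeR and 0.0857 by DESeq2. With any 1 library left out, the log2 fold change stayed between 0.38 and 0.51.

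Sfrp4, a relative of Sfrp2, was near 1 normalized CPM, at 1.36, 0.418 and 0.861 in WT and 1.71, 1.88 and 2.83 in CharmeKO. Its groups did not overlap either, with a log2 fold change of 1.25 (SE 0.49, 95% interval 0.18 to 2.32, adjusted p = 0.316 by edgeR and 0.247 by DESeq2). The most abundant antagonist, Sfrp1, was even across libraries, at 105.2, 127 and 131 in WT and 108, 114 and 122 in CharmeKO, with a log2 fold change of −0.08 (SE 0.12, 95% interval −0.35 to 0.19, edgeR's adjusted p = 0.835). Dkk3, a divergent Dickkopf whose action on Lrp receptors is less clear, had 63.9, 51.0 and 42.8 against 49.4, 35.5 and 43.6, with overlap and a log2 fold change of −0.30 (SE 0.16, edgeR's adjusted p = 0.469) that was −0.13 without WT replicate 1 and −0.18 without CharmeKO replicate 2.

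Within the antagonists, the share of Sfrp2 lay apart between the groups while the total overlapped. Sfrp2 made up 20.3 ± 1.32% of the summed antagonist level per kb in WT and 28.1 ± 1.13% in CharmeKO, without overlap (SD, n = 3 each). Sfrp1 made up 48.4 ± 5.40% and 46.0 ± 2.51%, and Dkk3 27.3 ± 5.64% and 22.3 ± 3.27%, both with overlap. The ratio of Sfrp2 to Sfrp1 per kb was 0.421 ± 0.0238 in WT and 0.611 ± 0.0336 in CharmeKO, without overlap. The share and the ratio restate the Sfrp2 values given above and are no separate evidence. The summed level per kb of the 9 antagonist members was 57.3 ± 0.284 in WT and 57.1 ± 3.91 in CharmeKO, and this sum, on which the shares rest, leaves out Frzb (Sfrp3), a further antagonist that the symbol pattern does not take.

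Wif1, which binds Wnt ligands directly, was at 4.49, 2.55 and 3.12 normalized CPM in WT and 1.57, 2.13 and 3.95 in CharmeKO, and Dkk2 and Sfrp5 were at or below 2.00 in every library, all with overlap. Dkk1, the classical inhibitor of Lrp6, was below the filter, with 3, 1 and 2 counts in WT and 12, 0 and 0 in CharmeKO, and Dkk4 was at 0 in every library. Of the Dickkopf family, Dkk3 was therefore the one gene with more than a few normalized CPM. Frzb was at 38.3 ± 4.02 in WT and 38.4 ± 3.46 in CharmeKO, with a log2 fold change of 0.0042 (SE 0.13, edgeR's adjusted p = 0.994).

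**Figure D4:**
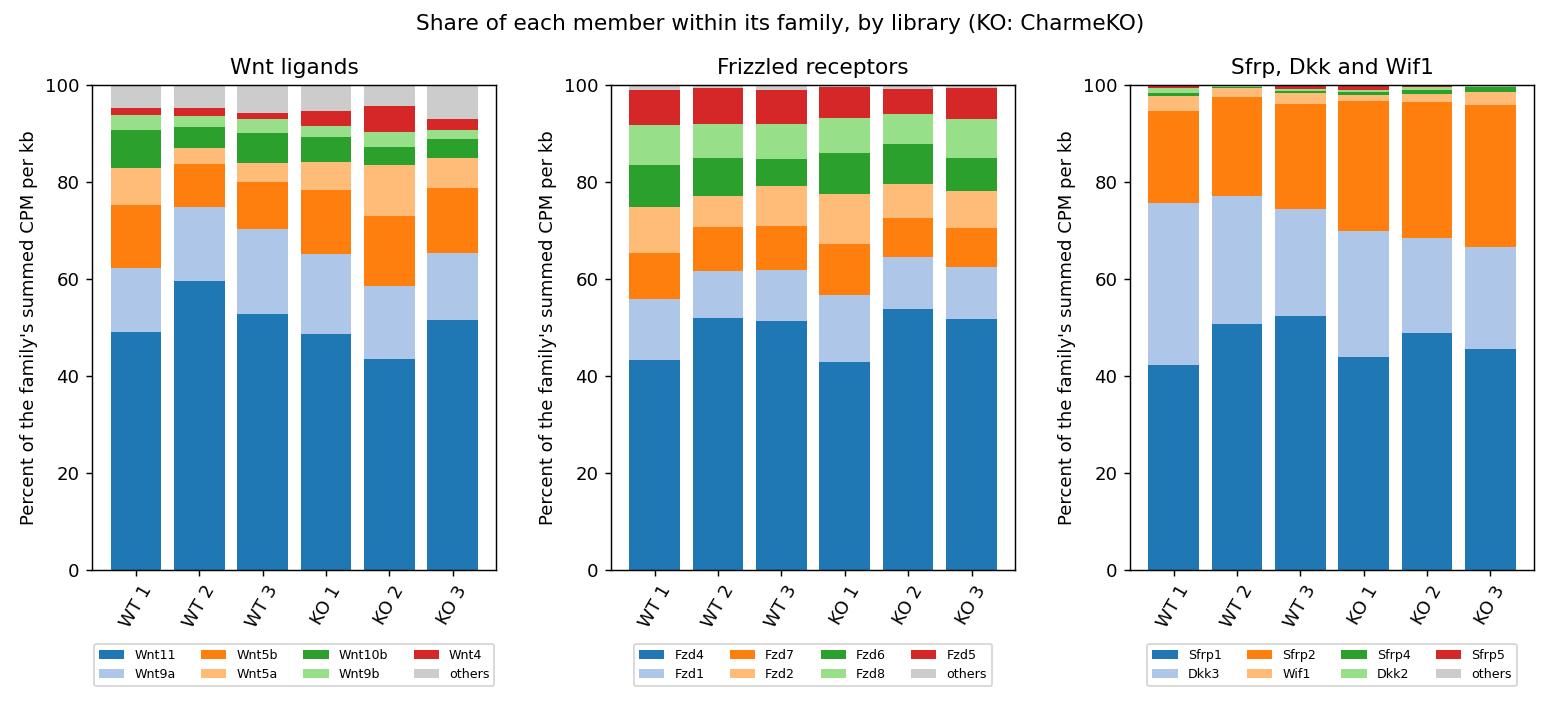
Share of each member in the summed normalized CPM per kb of its family, as a stacked bar from 0 to 100% for each of the 6 libraries, for Wnt ligands, Frizzled receptors and secreted antagonists. Wnt11 holds the largest share of the ligands and Fzd4 of the receptors in every library, and the Sfrp2 share is 18.9% to 21.6% in WT and 26.9% to 29.2% in CharmeKO.

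The R-spondin Rspo1 had 1.15, 1.94 and 1.94 normalized CPM in WT and 1.08, 0.982 and 1.74 in CharmeKO, with overlap and a log2 fold change of −0.37 (SE 0.44, edgeR's adjusted p = 0.786), and Rspo3 had 1, 2 and 4 counts in WT and 13, 1 and 5 in CharmeKO. Of the nuclear members, Tcf7l2, a TCF factor, had 23.5, 26.4 and 23.5 normalized CPM in WT and 17.2, 22.3 and 21.6 in CharmeKO. Its groups lay apart by a small gap, with a log2 fold change of −0.26 (SE 0.14, 95% interval −0.57 to 0.048, edgeR's adjusted p = 0.469) that was −0.15 without CharmeKO replicate 1. Axin2, a scaffold of beta-catenin degradation and a widely used readout of the pathway, had 3.27, 3.04 and 3.98 against 4.30, 4.13 and 3.72, with a log2 fold change of 0.25 (SE 0.26, 95% interval −0.31 to 0.82, edgeR's adjusted p = 0.746). Lef1 was at or below 0.846 in every library, with a log2 fold change of −0.32 (SE 0.64, edgeR's adjusted p = 0.877).

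Summed over each role, the ligands came to 111 ± 18.0 normalized CPM in WT and 91.8 ± 16.2 in CharmeKO, the receptors to 1093 ± 132 and 1007 ± 104.1, the antagonists to 205 ± 3.65 and 198 ± 12.1, and the R-spondins to 1.85 ± 0.612 and 1.49 ± 0.445 (SD, n = 3 each). These 4 sums overlapped between the groups. The nuclear and feedback genes, most of whose level is Tcf7l2, summed to 27.6, 30.1 and 27.9 in WT and 22.2, 27.0 and 25.7 in CharmeKO, without overlap (28.5 ± 1.36 and 25.0 ± 2.45). This sum leaves out Tcf7l1, a TCF factor that the symbol rule does not take. Tcf7l1 had more normalized CPM than Tcf7l2, at 116 ± 25.2 in WT and 90.9 ± 4.80 in CharmeKO. Its groups overlapped, with a log2 fold change of −0.35 (SE 0.15, edgeR's adjusted p = 0.364). By library, WT replicate 2 held the highest value of 12 of the 33 tested members and CharmeKO replicate 2 the lowest of 9, while WT replicate 3, the shallowest, held the highest of 1.

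The wider pathway was counted in the same fit. Of 87 further genes of Wnt secretion, co-reception, the destruction complex, the nuclear complex and planar cell polarity, 79 were tested, and 0 passed by edgeR, against 0.83% of all genes, while 1 passed by DESeq2, against 2.5%. At an unadjusted edgeR p under 0.05 there were 12, or 15.2% against 12.8% of all genes, 2 of them higher in CharmeKO and 10 lower. The log2 fold change was below 0 in 52, or 65.8% against 48.8% of all genes, and above 0 in 27, with a median of −0.088. In 16 of the 79 the groups did not overlap, a share of 20.3% that is near the 18.2% of all genes. CharmeKO lay above WT in 1 of them (Ctnnb1, which encodes beta-catenin), or 1.27% against 9.57% of all genes, and below WT in 15, or 19.0% against 8.59%.

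The gene that passed by DESeq2 was Adgra2 (Gpr124), a co-receptor that acts with Reck in the response to Wnt7 ligands. It had 189.9, 171 and 198 normalized CPM in WT and 133, 122 and 151 in CharmeKO, without overlap. Its log2 fold change was −0.46 (SE 0.12), with an adjusted p of 0.0211 by DESeq2 and 0.154 by edgeR. Reck was at 78.0 ± 4.33 in WT and 75.4 ± 3.56 in CharmeKO (SD, n = 3 each), and the Wnt7 ligands themselves were at 0 counts in 5 of the 6 libraries.

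The next lowest p-values on that list were those of Bcl9l, a beta-catenin co-activator, Ptk7, a planar polarity receptor, Dvl3, a Dishevelled relay of Frizzled signals, and Tle3, a co-repressor of TCF factors. Their log2 fold changes were −0.36, −0.50, −0.41 and −0.48, with edgeR's adjusted p of 0.195, 0.224, 0.232 and 0.241. In Bcl9l the libraries were at 100.6, 118 and 111 normalized CPM in WT and 86.2, 84.6 and 86.0 in CharmeKO, in Ptk7 at 53.4, 56.6 and 62.7 against 38.1, 32.3 and 51.0, and in Dvl3 at 48.6, 56.0 and 61.1 against 43.5, 35.7 and 45.0. These 3 did not overlap between the groups, whereas Tle3, at 165.5, 221 and 219.8 in WT and 127, 135 and 173 in CharmeKO, did. Ctnnb1 itself was at 956, 954 and 901 in WT and 1065, 1177 and 1063 in CharmeKO, with a log2 fold change of 0.23 (SE 0.12, edgeR's adjusted p = 0.463).

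Of 22 genes listed as readouts of beta-catenin and TCF transcription, 18 were tested, 0 passed by either tool, and 2 had an unadjusted edgeR p under 0.05, or 11.1% against 12.8% of all genes, with 1 by DESeq2. The list took in Tcf4 (log2 fold change 0.058), a gene other than the TCF factor Tcf7l2 and not commonly used as such a readout. Some of these readouts are also members, such as Axin2 and Lef1, or genes of the wider list, such as Apcdd1 and Nkd2. The shares of the members, the wider list and the readouts are therefore not independent. The log2 fold change was below 0 in 14, or 77.8% against 48.8% of all genes, and above 0 in 4, with a median of −0.21. In 1 of the 18, Apcdd1, the groups did not overlap, with CharmeKO below WT, or 5.56% against 18.2% of all genes. Apcdd1, a membrane inhibitor of the pathway, was at 42.5 ± 4.40 normalized CPM in WT and 33.9 ± 2.75 in CharmeKO, with a log2 fold change of −0.32 (SE 0.12, edgeR's adjusted p = 0.308). Nkd2, a feedback inhibitor that binds Dishevelled, was at 7.23 ± 1.01 and 10.2 ± 2.53, with 0.50 (SE 0.22, edgeR's adjusted p = 0.386), so that these 2 feedback inhibitors stood on opposite sides of 0. The other 3 of the 5 with the lowest p, Cd44, Fgf18 and Sp5, had log2 fold changes of −0.42, −0.50 and −2.06. With 1 library left out, Cd44 was at −0.23 without WT replicate 3 and −0.65 without WT replicate 2, Fgf18 at −0.19 and Sp5 at −4.35 without CharmeKO replicate 2, and Sp5 was below 1 normalized CPM in every library.

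Some markers of other cell types and of tissue handling moved with the groups beside these values. The sums of the lymphatic endothelial, pericyte, smooth muscle, leukocyte and Schwann markers overlapped between the groups, as did the fibroblast, endothelial and erythroid sums. Of the 10 fibroblast markers, 4 had a log2 fold change above 0 and 6 below, and 0 passed edgeR's threshold. Dcn was at 0.29 and Mfap5 at −0.63, both without overlap, and Col1a1 was at −0.77 and Col1a2 at −0.54, both with overlap. The overlap of the fibroblast sum, mostly Gsn, therefore does not show that each marker was even. The 5 epicardial markers summed to 56.9 to 71.4 normalized CPM in WT and 34.0 to 40.7 in CharmeKO, and all 5 had a log2 fold change below 0, with 1 of them, Wt1, past edgeR's threshold (−0.66, adjusted p = 0.0189). Most of this sum was Wt1, at 46.2 to 53.6 in WT and 31.2 to 33.3 in CharmeKO. Krt19, Msln, Upk1b and Upk3b, each at or below 9.28 in every library, overlapped between the groups. Their adjusted p by edgeR ran from 0.305 (Upk1b) to 0.847 (Msln). The 4 endocardial markers summed to 241 to 271 in WT and 215 to 234 in CharmeKO, 3 of them below 0, with Plvap past edgeR's threshold (−0.92, adjusted p = 0.00791). The difference lay mostly in Plvap, as Npr3 was at −0.066, Cpe at −0.078 and Cytl1 at 0.17. The 7 cardiomyocyte markers summed to 249 to 319.8 in WT and 368 to 564 in CharmeKO, all 7 above 0, with Myh6 and Tnni3 past the threshold. Of the 8 genes of the dissociation response, 6 had a log2 fold change above 0 and 2 passed edgeR's threshold, the heat-shock genes Hspa1a (1.30, adjusted p = 0.0116) and Hspa1b (1.59, adjusted p = 0.0176). Every CharmeKO library was above every WT library in both, Hspa1a at 943, 509 and 789.7 normalized CPM in WT and 1654, 1809.7 and 2054 in CharmeKO, whereas the sum of the list overlapped, at 18928 to 27143 and 23755 to 25590. None of the markers on these lists was at 0 in every library, and their part in the values of the Wnt genes was not tested.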

How the data were processed

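Poly(A) RNA of native CFs from 3 WT and 3 CharmeKO samples was sequenced with a strand-specific kit, and all 6 libraries were used. The labels also list a growth medium, while the methods describe freshly isolated cells. The authors aligned the reads with STAR, counted them per gene of an Ensembl annotation to which Charme had been added, and took the reverse-strand column. The deposited values are raw counts, with no normalization and no filter. The methods give GRCm39, and the submitters' processing notes list GRCh38 beside it.

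Genes that reached 10 counts in 2 or more libraries were tested with edgeR 4.0.16 (TMM, quasi-likelihood, no covariate) in R 4.3.3, with Benjamini-Hochberg adjustment over all 15789 genes tested and a threshold of 0.05. This is 1 reading of the filter in the study's methods, whose words can also mean that a gene under 10 counts in 2 libraries is removed, and that stricter filter was not run. DESeq2 1.42.0, the tool of the study, was an alternative, as were other filters and normalizations, a replicate block, each library left out and, chosen after seeing the data, a term for Xist and Y-linked transcripts. Normalized CPM are counts divided by the TMM-scaled library size. SEs come from the F statistic, and 95% intervals from its degrees of freedom. The biological coefficient of variation was 20.2%. Total counts of 9595701 to 42101393 set the precision of low genes, for which 3 counts are 0.0705 to 0.323 normalized CPM. Lengths are exon unions of GENCODE M21 on GRCm38, used for no coordinate, and no member shares exon bases on its strand with another gene there. Counts were also simulated for the 15789 genes, with 200 of them changed by 1.5 on the log2 scale, and 15294 genes passed the filter again. Of the 200, edgeR recovered 155 and called 9 others, and DESeq2 recovered 159 and called 19 others. Smaller changes, such as those of Sfrp2 and Fzd5, were not simulated. Replicates differed by far more than sampling noise, so no library was a duplicate.

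The members and lists were chosen with earlier results of these data known, and no list was tested as a set. Full values are given for members past a threshold, with an unadjusted p under 0.05, without overlap between the groups, or among the 3 highest per length in their role, and for the 5 genes of each wider list with the lowest p. Frzb, Reck, Ctnnb1 and Tcf7l1, of the wider list, were named after their values were seen.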

Additional observations from a re-analysis of the deposited data

How the results depend on the processing

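The count of members past the threshold was 0 in the reported fit, with filterByExpr, DESeq2, DESeq2's size factors, upper-quartile normalization, the replicate block, the term for Xist and Y-linked transcripts and each library left out. Without the gene filter it was 1 (Wnt11, edgeR's adjusted p = 0.0327 against 0.410), where 699 of 24579 genes passed over the whole table against 131. Genes of the wider pathway past the threshold were 0 in the reported fit, 4 without the filter (Adgra2, Celsr2, Ptk7 and Tle3) and 1 by DESeq2 (Adgra2), and 0 to 1 with a library left out, the 1 being Ptk7 without CharmeKO replicate 3. The cause of these differences was not tested. Over the whole table, 394 genes passed by DESeq2, 302 with the replicate block, 349 without WT replicate 2, 189 without CharmeKO replicate 3, and between 61 and 71 without any one of the other 4 libraries. The median log2 fold change of the members, −0.17 in the reported fit, was −0.13 with the term for Xist and Y-linked transcripts and −0.23 to −0.13 with a library left out.

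Of 385 alternative values for 20 named members and 10 other named genes, 370 kept their direction and side of the threshold, 6 passed it in the same direction and 9 changed sign. Those that changed sign had differences near 0. Wnt5b (0.07) ranged from −0.0097 to 0.20 with a library left out, at −0.0097 without WT replicate 3 and −0.0053 without CharmeKO replicate 3. Fzd4 (−0.11) was at 0.0054 with the term for Xist and Y-linked transcripts and ranged from −0.23 to 0.043 with a library left out, with 0.040 without CharmeKO replicate 1. Fzd1 (−0.01) was at 0.0027 with upper-quartile normalization and ranged from −0.077 to 0.040, with 0.022 without CharmeKO replicate 2 and 0.026 without CharmeKO replicate 3.

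With the replicate block 0 members passed, with a median of −0.20. WT and CharmeKO libraries of the same number correlated in their deviations at 0.216, 0.0535 and 0.161, each the highest for its library, which is a hint from the data and not a pairing given by the labels. Among the other named members, leaving out 1 library moved Wnt9a (−0.46 to −0.13), Wnt2b (0.53 to 1.27), Lrp5 (−0.25 to −0.038), Sfrp1 (−0.17 to −0.020), Rspo1 (−0.67 to −0.22) and Lef1 (−0.66 to −0.035) by over 1.5 times, with no change of sign. Depth limits the members below 1 normalized CPM, and for the 12 members under the filter a difference was not detectable at this depth.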

Other observations

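Wnt6 followed a division of the samples into those with Xist and those with Y-linked transcripts, which was noticed after seeing the data and is no group of the study. It was at 0.259, 0.419 and 0.286 normalized CPM in the 3 Xist libraries (WT replicate 1 and CharmeKO replicates 1 and 2) and at 1.98, 1.18 and 2.30 in the other 3 (WT replicates 2 and 3 and CharmeKO replicate 3). The log2 difference was 2.65 (SE 0.56), with an adjusted p of 0.265 by edgeR. Some epicardial markers were divided in the same way. In the Xist libraries Msln was at 0.705, 0 and 1.47 and Upk3b at 2.26, 0 and 1.64. In the others they were at 3.84, 4.20 and 4.01 and at 9.28, 4.41 and 3.19. Upk1b did not overlap either, whereas Krt19 and Wt1 did. Whether Wnt6 varied with Xist or with such cells was not tested. In 4 of the 33 tested members (Wnt6, Wnt11, Sfrp1 and Rspo1) the libraries did not overlap across this division, or 12.1% against 13.7% of all genes tested, and 0 members passed edgeR's threshold against 18 of all genes.

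Within each side of that division, CharmeKO minus WT was taken in log2 of normalized CPM plus 0.5, which draws low genes such as Sfrp4 and Wnt4 toward 0. These values are therefore not the same measure as edgeR's log2 fold changes. They were 0.48 and 0.56 for Sfrp2, −0.35 and −0.31 for Fzd5, −0.95 and −0.50 for Wnt10b, 1.00 and 0.36 for Wnt4, and 0.30 and 1.57 for Sfrp4, each a difference of a few libraries with no test. For Wnt11 both values were −0.31, against edgeR's −0.46 over all libraries. Of the 20 named members, 4 were on opposite sides of 0 between the Xist libraries and the others, Fzd4 at 0.11 and −0.12, Wnt9a at 0.024 and −0.41, Wnt5b at −0.13 and 0.29, and Sfrp1 at 0.078 and −0.088.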
